A study of Sus scrofa with 32 samples.

Results

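The genes described here encode the fibrillar collagens and the other components of the stromal matrix of pig endometrium, with the enzymes that crosslink them. They are 43 genes of the 30185 in the count tables, listed by the role of their products, and each was matched to 1 NCBI gene. Of the 43, 39 were matched by symbol, CCN1 and CCN2 through their older symbols, HAS2 through a synonym, and COL6A1 through its annotated protein product. The tissue came from 8 prepuberal gilts on Day 14, which the labels count from ovulation for the nonpregnant and as gestation for the pregnant ones. All 8 had been synchronized with gonadotropins. The 4 pregnant gilts were then inseminated with semen, and the 4 nonpregnant, cyclic gilts with the semen supernatant. The gilts are written here as C128, C40, C42 and C78 for cyclic and P139, P39, P41 and P43 for pregnant, with the numbers of the labels. From each endometrium, stroma (S), blood vessels (BV), glands (GE, glandular epithelium) and the luminal epithelium (LE) were collected by laser capture microdissection and sequenced as separate low-input libraries. The 31 libraries analysed here hold 2415200 to 7081600 counts. Glands of P41 were not analysed here, which leaves 3 pregnant libraries of GE beside 4 in each of the other groups.

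Fibrillar collagens assemble into the fibres that give connective tissue its tensile strength, and type I and type III are the main ones of the uterine stroma. Small leucine-rich proteoglycans bind the fibrils and limit their diameter, fibronectin and other glycoproteins link matrix to cell surface integrins, elastin and fibrillins form the elastic fibres of vessel walls, and lysyl oxidases crosslink collagen and elastin. In the pig the conceptus attaches to an intact luminal epithelium without invading the stroma, so that this matrix lies beneath the site of attachment. In libraries of captured tissue areas, fewer cells of a type and less RNA per cell cannot be told apart.

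Gene levels are given as CPM, counts scaled by the normalized library size, and for comparisons between genes as CPM per kb of annotated exon. Values of single libraries are given in the order of gilts given above. A gene is called detectable in a compartment where the authors' filtered table for that compartment holds it. Of the 43 genes, 42 were detectable in BV, 39 in S, 37 in LE and 34 in GE. VTN, which encodes vitronectin, was detectable in none of the 4. COL8A1 and ACAN were detectable in BV and in no other compartment.

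The captures differed in the content of matrix transcripts. Together the 43 genes took 5.29 to 11.0% of all counts in cyclic and 4.98 to 10.4% in pregnant S, and 4.33 to 11.2% in cyclic and 4.99 to 8.88% in pregnant BV. In LE the share was 0.888 to 2.06% in cyclic and 1.37 to 2.11% in pregnant gilts, and in GE 0.756 to 1.08% and 0.678 to 1.16%. The stroma and vessel libraries lay above those of both epithelia without overlap, and the cyclic and pregnant ranges overlapped in each compartment. C78 had the lowest share of the cyclic and P139 of the pregnant gilts in every compartment. Of the 43 genes, 21 had their highest mean level in BV, 19 in S, 2 in LE (MFAP5 and SPP1) and 1 in GE (CCN2). These means pool cyclic and pregnant gilts. MFAP5 was low in LE of C128 and of every pregnant gilt, and SPP1 had 46.0 CPM per kb in LE beside 43.6 in S, with P41 its highest LE library. Of the marker genes, 10 epithelial markers summed to 1788 to 3480 CPM in LE and GE and to 3.69 to 510 CPM in BV and S. The 8 smooth muscle markers summed to 1208 to 18584 CPM in BV against 540 to 1348 CPM in S, with overlap. The 10 endothelial markers summed to 1628 to 3263 CPM in BV and to 589 to 3004 CPM in S. The 8 fibroblast markers summed to 1128 to 2945 CPM in BV and to 1859 to 5139 CPM in S. Both of these also overlapped, and in P139 the endothelial sum was higher in S (3004 CPM) than in BV (1956 CPM).

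**Figure D1:**
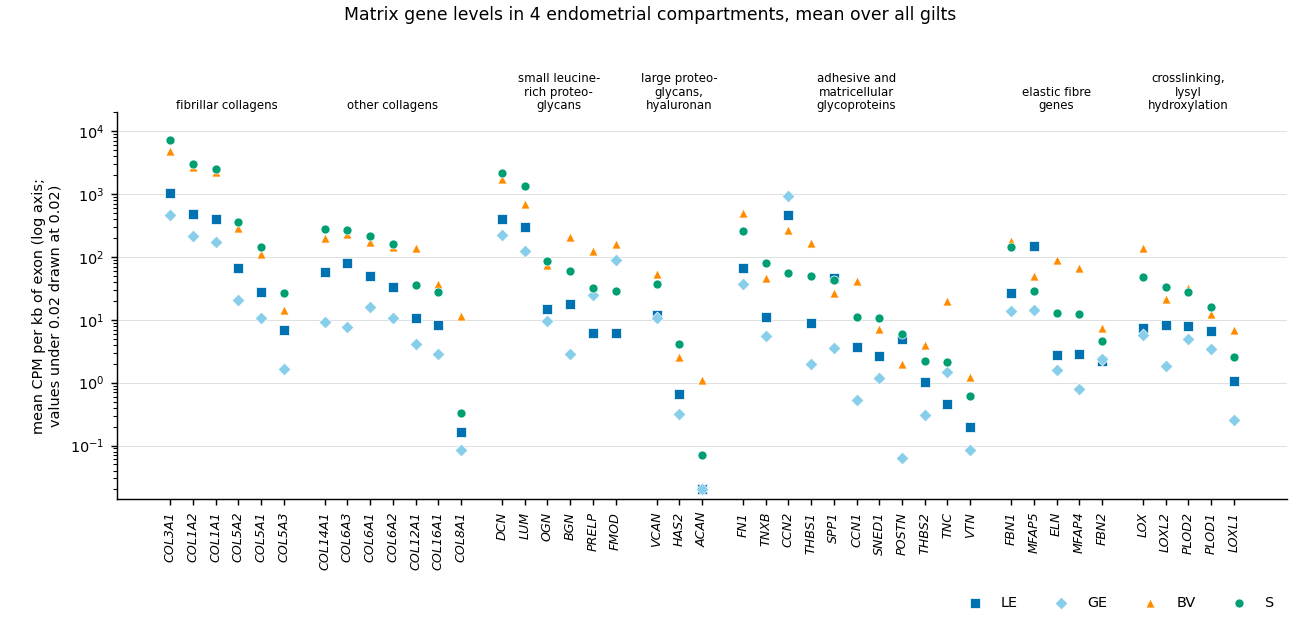
Mean level of each of the 43 genes in LE, GE, BV and S over all gilts (8 gilts, 7 in GE), as CPM per kb of exon on a log axis, grouped by the role of the product. COL3A1 leads in each compartment but GE, where CCN2 lies at 934 against 463 CPM per kb for COL3A1, and most genes lie higher in BV and S than in LE and GE.

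Type III and type I collagen transcripts dominated the matrix genes. COL3A1, the chain of type III collagen, had a mean of 7227 ± 2913 CPM per kb in S (SD, n = 8), 4849 ± 2060 in BV, 1056 ± 382 in LE (SD, n = 8) and 463 ± 163 in GE (SD, n = 7). COL1A2, the alpha-2 chain of type I collagen, came next in S with 2997 ± 989 CPM per kb, and COL1A1, its alpha-1 chain, after it with 2512 ± 714. These 3 genes together made up 64.1 to 76.7% of the summed CPM of all 43 in S and 47.0 to 73.4% in BV. In S, COL3A1 stood at 32458, 42439, 54811 and 15025 CPM in cyclic and at 15876, 44020, 40590 and 30449 CPM in pregnant gilts. COL1A2 stood at 18214, 18151, 21578 and 8438 CPM in cyclic and at 8490, 19623, 15089 and 12342 CPM in pregnant S. C78 was the lowest cyclic and P139 the lowest pregnant library for both, and the other 3 of each group overlapped. The minor fibrillar chains of type V collagen, which are built into type I fibrils, reached mean levels of 360, 144 and 26.8 CPM per kb in S for COL5A2, COL5A1 and COL5A3. The exons of COL5A2 overlap those of WDR75 on the other strand, and if the counting did not use strand their reads cannot be told apart.

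The sequences just before the annotated starts of 4 genes are shown because COL1A1 and COL1A2 encode the chains of type I collagen, and CCN1 and CCN2 are close relatives whose levels ranked differently across the captures (given with the glycoproteins). Each is the 200 bases before the gene's first annotated base in RefSeq on Sscrofa11.1, 5′ to 3′ on the gene's own strand, with no transcribed base. Capitals mark matches on either strand to the CCAAT box, the TATA box (letters TATAAA), the GC box (letters GGGCGG) and the core bound by TEAD factors (letters CATTCC). The CArG box was searched as well and has no match in them, and no matches overlap each other.
COL1A1, chr12:26397181-26397380, minus strand: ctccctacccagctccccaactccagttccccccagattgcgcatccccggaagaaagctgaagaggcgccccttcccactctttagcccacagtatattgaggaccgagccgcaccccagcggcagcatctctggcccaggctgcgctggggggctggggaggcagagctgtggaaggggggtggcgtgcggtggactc
COL1A2, chr9:74174284-74174483, plus strand: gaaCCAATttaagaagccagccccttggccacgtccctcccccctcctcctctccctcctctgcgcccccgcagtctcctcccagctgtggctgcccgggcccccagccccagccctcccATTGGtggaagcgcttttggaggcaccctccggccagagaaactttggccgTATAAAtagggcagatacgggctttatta
CCN1, chr4:130395180-130395379, minus strand: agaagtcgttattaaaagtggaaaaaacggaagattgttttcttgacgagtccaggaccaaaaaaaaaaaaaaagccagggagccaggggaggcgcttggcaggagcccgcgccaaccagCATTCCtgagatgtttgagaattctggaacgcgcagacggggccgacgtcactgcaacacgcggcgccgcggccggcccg
CCN2, chr1:31674198-31674397, plus strand: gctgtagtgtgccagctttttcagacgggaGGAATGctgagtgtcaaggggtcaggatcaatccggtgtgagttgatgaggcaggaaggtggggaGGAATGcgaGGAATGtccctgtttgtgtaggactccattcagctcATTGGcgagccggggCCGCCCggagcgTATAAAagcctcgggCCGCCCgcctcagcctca
COL1A2 holds a TATA box from 29 to 24 bases before its start and 2 CCAAT boxes, the nearer one from 80 to 76 bases before it. COL1A1 holds no match in its window. CCN2 holds 3 TEAD cores on the reverse strand, a TATA box, 2 GC boxes and a CCAAT box on the reverse strand from 60 to 56 bases before its start, and CCN1 holds 1 TEAD core from 80 to 75 bases before its start. Among the windows of 20665 protein-coding genes, 27.7% hold the CCAAT box, 8.22% the TATA box, 42.4% the GC box, 8.08% the TEAD core and 0.973% a CArG box. A match is a description of the letters and not of binding.

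The ratio of the type I chains was compared between pregnant and cyclic gilts in each compartment. The ratio of COL1A1 to COL1A2, both per kb, was 0.670 to 0.850 in cyclic and 0.910 to 1.05 in pregnant S, and 0.685 to 0.83 in cyclic and 0.918 to 1.25 in pregnant BV. In both captures, which come from the same 8 gilts, every pregnant gilt lay above every cyclic one. On the log2 scale the ratio was higher in pregnant gilts by 0.41 ± 0.10 in S and by 0.53 ± 0.11 in BV (SE), each with p = 0.0286 in an exact two-sided permutation test, the smallest p that 4 against 4 allows. In LE and GE the ratios overlapped. This ratio was singled out after its values were seen, and 3 ratios in 4 compartments were tested. The adjusted p of the permutation test was 0.171 in S and in BV, and no ratio passed the correction in any compartment. As 0.0286 was the smallest p possible, S and BV alone could not have passed it, however large the difference. The correction therefore does not decide whether the ratio differed. The ratio of COL6A1 to COL6A2, chains of 1 collagen molecule, overlapped between pregnant and cyclic gilts in each compartment (0.908 to 2.04 over all libraries).

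Most of the matrix genes were higher in stroma than in either epithelium. Of the 42 genes tested, 33 were higher in S than in LE and 1 lower, at a false discovery rate of 1% in edgeR's quasi-likelihood test with the gilt as a block. Of all 13887 genes 50.6% were called, 23.9% as higher and 26.7% as lower in S. Against GE, 34 were higher in S and 2 lower, where 59.3% of all genes were called, 31.4% as higher and 27.9% as lower. The median log2 difference over the 42 genes was 2.15 against LE and 3.32 against GE, beside -0.04 and 0.03 over all genes tested. All 6 fibrillar collagens were higher in S in both contrasts. COL3A1 was higher in S by 2.77 ± 0.15 on the log2 scale against LE and by 3.88 ± 0.17 against GE (SE). TNXB, which encodes tenascin X, a glycoprotein that bridges collagen fibrils, was higher by 2.82 ± 0.21 against LE. The lysyl oxidase LOX was higher by 2.74 ± 0.24 against LE, and all 5 crosslinking and lysyl hydroxylation enzymes (LOX, LOXL1, LOXL2, PLOD1 and PLOD2) were higher in S than in both epithelia. The fit held genes detectable in at least 1 compartment. HAS2 and LOXL1 were detectable in neither epithelium and entered it through BV and S. MFAP4, POSTN, THBS2 and CCN1 were not detectable in GE. The calls of these genes against an epithelium where they were not detectable are therefore not independent of that filter. Genes that did not pass against either epithelium were MFAP5, FBN2, TNC, COL8A1 and ACAN.

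CCN2, FMOD, MFAP5 and SPP1 were exceptions in at least 1 of these contrasts. CCN2, a secreted matricellular protein also known as connective tissue growth factor, stood in S at 162, 100, 68.5 and 157 CPM in cyclic and at 158, 36.4, 227 and 125 CPM in pregnant gilts. In LE it stood at 276, 1169, 1316 and 2312 CPM in cyclic and at 970, 624, 1136 and 1095 CPM in pregnant gilts, above every stroma library. In GE it reached 138, 2852, 2321 and 2316 CPM in cyclic and 1496, 2586 and 3656 CPM in pregnant gilts. C128 was the lowest library in both epithelia. For CCN2 the log2 difference of S against LE was -2.89 ± 0.44 and of S against GE -3.98 ± 0.49 (SE; adjusted p = 9.52e-06 and 3.42e-07 by edgeR). Its relative CCN1 ranked differently, with means of 41.6 CPM per kb in BV, 11.0 in S, 3.72 in LE and 0.520 in GE, against 264, 55.0, 473 and 934 CPM per kb for CCN2. CCN1 was higher in S than in GE by 4.23 ± 0.49 and CCN2 lower. CCN1 was not detectable in GE, where its libraries held 0 to 9 counts.

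Fibromodulin (FMOD), a small proteoglycan on collagen fibrils, had its highest levels in vessels and cyclic glands. In BV it stood at 933, 560, 622 and 588 CPM in cyclic and at 449, 291, 459 and 153 CPM in pregnant gilts. In GE it stood at 592, 305, 695 and 246 CPM in cyclic and at 88.5, 40.1 and 58.6 CPM in pregnant gilts. In S it stood at 273, 61.1, 92.2 and 41.4 CPM in cyclic and at 18.9, 71.4, 125 and 47.7 CPM in pregnant gilts. The cyclic gland libraries lay within or above the range of cyclic stroma. The log2 difference of FMOD in S against GE was -1.22 ± 0.35 (SE; adjusted p = 0.00388 by edgeR), and the call was lost without the gilt block (adjusted p = 0.0604) and in 2 of the 8 fits that left out 1 gilt, without C42 and without P43 (adjusted p up to 0.0203 by edgeR). In LE against GE it was -3.46 ± 0.37 for FMOD and -1.49 ± 0.40 for PRELP, another member of the small proteoglycan family. The call of PRELP was lost in 2 of the 8 fits that left out 1 gilt, without C42 and without P139 (adjusted p up to 0.0311 by edgeR). These were the 2 genes lower in LE among the 28 called between the epithelia, where 41.4% of all genes were called, 25.9% as higher and 15.5% as lower in LE. The other 26 were higher in LE, with a median log2 difference of 1.21 over the 42 genes and 0.13 over all genes. The type VI chain COL6A3 was higher in LE than in GE by 3.31 ± 0.36, SPP1 by 3.27 ± 0.51, CCN1 by 3.03 ± 0.51 and POSTN, which encodes periostin, by 6.25 ± 0.81 on the log2 scale. POSTN and CCN1 were not detectable in GE. Their gland libraries held 0 to 6 and 0 to 9 counts, so that the size of their differences rests on few counts. As for markers of neighbouring cells, the 8 fibroblast markers summed to 291 to 1603 CPM in LE against 165 to 581 CPM in GE, and the 10 endothelial markers to 143 to 1098 CPM against 17.6 to 195 CPM. Their part in the difference was not tested.

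Stroma against vessels split the matrix into a set higher in each capture. Of the 42 genes, 13 were higher in BV and 4 in S, where 7.19% of all genes were called, 3.81% as higher in BV and 3.38% in S. The 13 were COL8A1 and COL12A1 among the collagens, BGN, FMOD and PRELP among the small proteoglycans, TNC, THBS1, CCN1 and CCN2 among the glycoproteins, ELN and MFAP4 among the elastic fibre genes and the lysyl oxidases LOX and LOXL1. The 4 were COL3A1, COL5A3, LUM and TNXB. The median log2 difference over the 42 genes was -0.26 and over all genes 0.02.

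**Figure D2:**
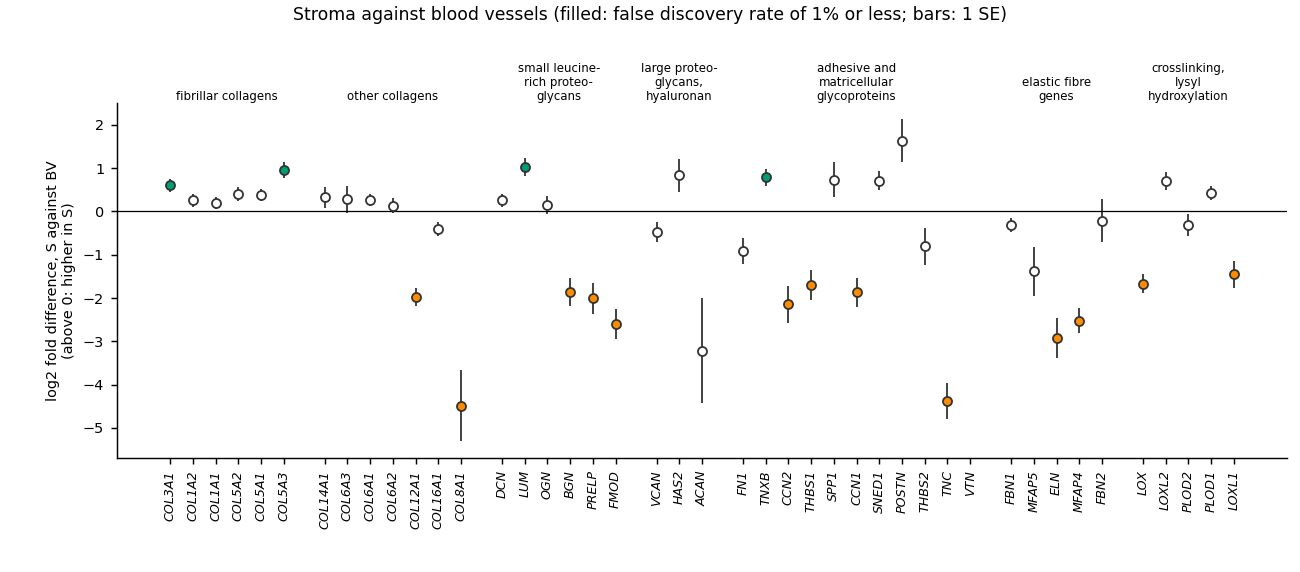
Log2 fold difference of each tested gene in S against BV from the joint fit of 31 libraries, with bars of 1 SE, grouped by role; filled points passed a false discovery rate of 1%, green for higher in S and orange for higher in BV. The 6 fibrillar collagens lie between 0.20 and 0.96, while TNC and COL8A1 lie below -4.

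Among the genes higher in vessels, TNC, which encodes tenascin C, had a log2 difference of S against BV of -4.37 ± 0.42 (SE; adjusted p = 4.89e-06 by edgeR), and COL8A1, a short-chain collagen of vessel walls, of -4.48 ± 0.83. The joint fit held genes detectable in at least 1 compartment. COL8A1 entered it through BV alone, with 0 to 32 counts per S library, and TNC through BV and GE. Their calls against S are therefore not independent of that filter. Elastin (ELN), the core of elastic fibres, had a difference of -2.92 ± 0.46. ELN stood at 311, 348, 528 and 313 CPM in cyclic and at 405, 232, 326 and 110 CPM in pregnant BV, against 16.8 to 75.9 CPM in S. MFAP4, a microfibril-associated protein whose exons overlap those of MAPK7 on the other strand, had a difference of -2.52 ± 0.30, COL12A1, a collagen on the surface of fibrils, of -1.98 ± 0.21 and LOX of -1.67 ± 0.22. LOX stood at 259, 231, 232 and 218 CPM in cyclic and at 204, 193, 221 and 183 CPM in pregnant BV. Each of these vessel libraries lay above every stroma library for ELN and for LOX. Biglycan (BGN) was called with -1.86 ± 0.33, while decorin (DCN) and osteoglycin (OGN) of the same family had differences of 0.26 ± 0.15 and 0.15 ± 0.20, neither called.

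Among the genes higher in stroma, lumican (LUM), a small proteoglycan of collagen fibrils, stood at 2383, 3862, 4447 and 1774 CPM in cyclic and at 2077, 2328, 2138 and 1727 CPM in pregnant S. In BV it stood at 2828, 1656, 1838 and 741 CPM in cyclic and at 566, 970, 1197 and 1156 CPM in pregnant gilts. It was higher in S in every gilt but C128, by 1.03 ± 0.20 on the log2 scale (SE; adjusted p = 0.0014 by edgeR). COL5A3 was higher in S by 0.96 ± 0.18, TNXB by 0.78 ± 0.19 and COL3A1 by 0.60 ± 0.14. TNXB shares exon bases with ATF6B on its own strand and with CYP21A2 on the other, so that part of its counts could belong to them. These 4 calls and that of LOXL1 depended on the gilt block: without it the adjusted p was 0.0425 for LUM, 0.0103 for COL5A3, 0.095 for TNXB, 0.281 for COL3A1 and 0.0252 for LOXL1. COL3A1 and TNXB each lost the call in 6 of 8 fits that left out 1 gilt, LOXL1 in 5 and CCN2 in 4 of 8. COL8A1 lost it without P139 (adjusted p = 0.0657 by edgeR).

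The remaining leading genes of each role were shared by stroma and vessels. DCN, which binds type I collagen fibrils, had means of 2133 ± 826 CPM per kb in S and 1720 ± 415 in BV (SD, n = 8). COL14A1 and COL6A3, a fibril-associated and a microfibril-forming collagen, had 278 ± 149 and 272 ± 101 in S and 199 ± 70.9 and 232 ± 70.4 in BV. FN1, which encodes fibronectin, had 260 ± 80.3 in S and 503 ± 249 in BV, and its log2 difference of -0.91 ± 0.29 in S against BV was not called. FBN1, which encodes fibrillin 1, had 146 ± 56.0 and 177 ± 65.0. Versican (VCAN), the large proteoglycan that binds hyaluronan, had 37.8 ± 14.5 and 53.1 ± 24.5, and the hyaluronan synthase HAS2 4.15 ± 3.73 and 2.56 ± 3.14. HAS2 lies next to an annotated near copy and its exons overlap an antisense gene, so that its counts are uncertain. LOXL2 had 33.5 ± 15.9 in S and 21.2 ± 9.70 in BV. For each of these genes the ranges of S and BV overlapped.

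Single stroma libraries show how far the leading genes varied. DCN stood at 2172, 3752, 5109 and 1687 CPM in cyclic and at 2043, 4517, 3228 and 2813 CPM in pregnant S. FBN1 stood at 1768, 1594, 2202 and 672 CPM in cyclic and at 674, 1665, 1355 and 1178 CPM in pregnant S. C78 was again the lowest cyclic and P139 the lowest pregnant library for both genes. TNXB stood at 1389, 1017, 1337 and 502 CPM in cyclic and at 729, 2184, 1526 and 1355 CPM in pregnant S. FN1 stood at 2105, 2406, 2615 and 828 CPM in cyclic and at 1976, 3259, 2253 and 2371 CPM in pregnant S. The same gilts were lowest for TNXB and FN1. COL6A3 stood at 3144, 4345, 2331 and 3944 CPM in cyclic and at 1951, 1425, 2180 and 2356 CPM in pregnant S. LOXL2, another lysyl oxidase, stood at 176, 236, 150 and 108 CPM in cyclic and at 48.4, 90.4, 107 and 86.5 CPM in pregnant S. COL6A3 did not follow this order of gilts, its groups overlapped by C42 and P43, and those of LOXL2 did not overlap. VCAN stood at 589, 793, 634 and 352 CPM in cyclic and at 267, 433, 482 and 279 CPM in pregnant S, and HAS2 at 2.34 to 33.2 CPM over both groups, with overlap for both.

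By the rule that follows, few of these genes were called for pregnancy within a compartment, and more were called by the paper's kind of test, given below. The luminal epithelium was judged at a false discovery rate of 1% in edgeR's quasi-likelihood test, and the largest p called there, 0.000328, served as the limit for the other captures. By this rule MFAP5 was called lower as 1 of 37 genes of LE, FMOD lower as 1 of 34 of GE, and SNED1 higher as 1 of 42 of BV, while 0 of 39 passed in S. The share of all genes called was 3.32% for LE (2.02% higher and 1.29% lower), 0.748% for GE (0.512% and 0.235%), 1.86% for BV (1.3% and 0.559%) and 0.293% for S (0.184% and 0.109%).

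The size of these counts depended on the test. In the order LE, GE, BV and S, DESeq2 with its own limit called 1, 6, 3 and 2 of the genes, where it called 11.2, 6.64, 8.5 and 2.6% of all genes. The robust likelihood ratio test of edgeR called 2, 8, 8 and 8, where it called 11.8, 6.66, 11.0 and 3.16% of all genes. The paper also used edgeR's robust GLM, so that this alternative is the nearest to its published analysis. Here it called 1411, 793, 1216 and 377 genes in all, close to the paper's totals. At a false discovery rate of 5% within each capture the quasi-likelihood test called 1, 1, 3 and 0, beside 10.7, 1.86, 8.63 and 0.0335% of all genes.

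At an unadjusted p under 0.05, 14 of the vessel genes passed (2 higher and 12 lower in pregnant gilts), where 28.5% of all genes did (14.4% higher, 14.1% lower). In stroma 10 passed (2 higher, 8 lower), beside 14.5% of all genes (7.49% and 7.05%). For GE it was 10 (6 higher, 4 lower), beside 23.0% (11.2% and 11.8%), and for LE 3 (2 higher, 1 lower), beside 26.9% (14.0% and 13.0%). The median log2 fold change over the genes tested was -0.43 for BV, -0.23 for S, 0.11 for LE and 0.03 for GE, beside medians between -0.01 and 0.00 over all genes. The CPM of pregnant and cyclic gilts did not overlap for 2, 9, 4 and 6 of the genes (LE, GE, BV, S), against 19.4, 22.9, 18.2 and 8.81% of all genes. None of the 6 fibrillar collagens was called in any compartment, and of their 24 fold changes 1 passed the unadjusted threshold, that of COL5A3 in LE (1.0 ± 0.32 on the log2 scale).

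**Figure D3:**
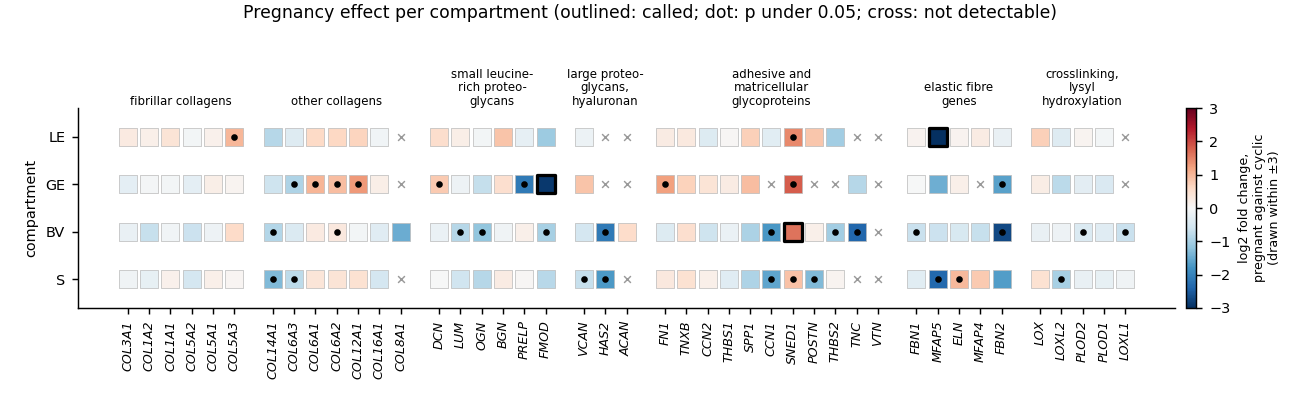
Log2 fold change of each gene in pregnant against cyclic gilts within LE, GE, BV and S, red for higher and blue for lower in pregnant gilts and drawn within ±3. Outlined squares are the 3 calls (MFAP5 in LE, FMOD in GE, SNED1 in BV), dots mark an unadjusted p under 0.05 without a call, and crosses genes not detectable in that compartment.

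SNED1, a matrix glycoprotein with sushi, nidogen and EGF-like domains (chr15:139821021-139881099), was the gene called higher in pregnant gilts. In BV it stood at 25.9, 40.8, 28.4 and 31 CPM in cyclic and at 90.9, 107, 69.7 and 122 CPM in pregnant gilts. Every pregnant vessel library exceeded every cyclic one. The log2 fold change was 1.64 ± 0.21 (SE), a 3.11-fold higher level, with an adjusted p = 0.013 by edgeR. The call held in each fit without 1 library and without C78 and P139 together. In GE it stood at 2.38, 3.92, 6.26 and 8.06 CPM in cyclic and at 23.6, 13.9 and 17.3 CPM in pregnant gilts, again without overlap, with a log2 fold change of 1.81 ± 0.41 and an adjusted p = 0.0664 by edgeR. In LE and S the log2 fold changes were 1.44 ± 0.45 and 0.89 ± 0.28, the groups overlapped, and neither was called by the rule above. The robust likelihood ratio test of edgeR also called SNED1 as higher in GE and LE (adjusted p = 0.000322 and 0.00486). DESeq2 also called it in GE (adjusted p = 0.00248).

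MFAP5, a microfibril-associated glycoprotein that binds fibrillins (chr5:62742520-62757522), was called lower in pregnant LE. In LE it stood at 10.7, 265, 529 and 420 CPM in cyclic and at 2.31, 4.14, 9.71 and 2.56 CPM in pregnant gilts. C128 lay just above the highest pregnant library and far below the other cyclic ones. The log2 fold change was -5.95 ± 1.07 (SE; adjusted p = 0.00961 by edgeR), and the call was lost in 7 of the 8 fits without 1 library, with log2 fold changes from -6.66 to -5.57. Without C128, the exception, the adjusted p was 0.000594. In S MFAP5 stood at 56.4, 46.3, 72.9 and 24 CPM in cyclic and at 2.10, 13.3, 22.6 and 1.02 CPM in pregnant gilts, without overlap but not called (log2 fold change -2.36 ± 0.75, adjusted p = 0.213 by edgeR). In BV the groups overlapped, with 41.2 to 93.5 CPM in cyclic and 6.68 to 71.5 CPM in pregnant gilts. A test of whether the pregnancy effect differed between compartments gave an adjusted p of 0.028 for MFAP5, the lowest of the 42 genes, and called 0 of them, where 1.94% of all genes were called. In that test 10 of the 42 genes had an unadjusted p under 0.05, beside 22.5% of all genes, and DESeq2 and a false discovery rate of 5% each called 1, beside 6.48 and 6.23% of all genes.

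FMOD (chr9:64062995-64073853) was called lower in pregnant GE, where its libraries, given above, did not overlap. The log2 fold change was -2.89 ± 0.46 (SE), a 7.39-fold lower level, with an adjusted p = 0.0405 by edgeR. The unadjusted p was above the limit in 6 of the 7 fits without 1 library, with log2 fold changes from -3.21 to -2.59. In BV the FMOD libraries did not overlap either (log2 fold change -0.99 ± 0.33, adjusted p = 0.088 by edgeR, not called), while in LE and S they did. The call rested on glands of 3 pregnant gilts.

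**Figure D4:**
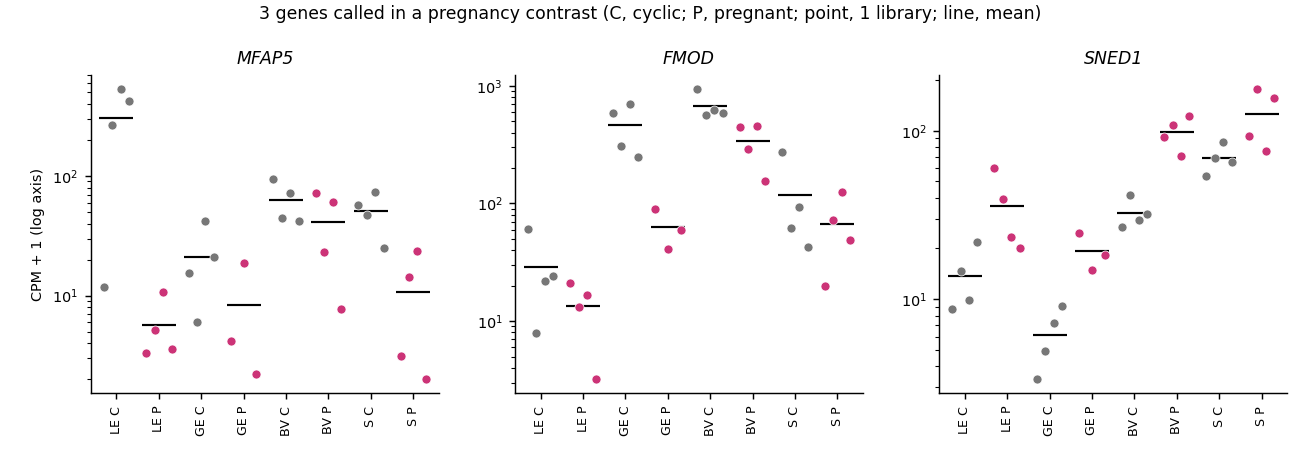
CPM + 1 on a log axis of MFAP5, FMOD and SNED1 in each library of the 4 compartments, cyclic in grey and pregnant in red, with a line at the group mean. The MFAP5 points of pregnant LE lie below 10 CPM, those of FMOD in pregnant GE between 40.1 and 88.5 CPM and those of SNED1 in pregnant BV between 69.7 and 122 CPM.

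In GE 6 of the 10 genes under the unadjusted threshold were higher in pregnant gilts. COL6A1 and COL6A2, chains of type VI collagen, had log2 fold changes of 1.02 ± 0.21 and 0.94 ± 0.20, FN1 of 1.22 ± 0.31, COL12A1 of 1.3 ± 0.34, SNED1 of 1.81 ± 0.41 and DCN of 0.80 ± 0.25, none called (adjusted p from 0.0561 to 0.113 by edgeR). COL6A3, another chain of the same molecule, had a log2 fold change of -0.92 ± 0.31 (adjusted p = 0.134 by edgeR). Gland libraries of FN1 stood at 141, 335, 182 and 150 CPM in cyclic and at 439, 472 and 511 CPM in pregnant gilts. Besides FMOD, DESeq2 called SNED1, COL6A1, COL6A2, COL12A1 and FN1, with adjusted p from 0.00184 for COL6A1 to 0.0107 for COL12A1. The robust likelihood ratio test of edgeR called the same genes in GE, and PRELP and FBN2 as lower. The summed level of the 8 fibroblast markers was 165 to 260 CPM in cyclic and 456 to 581 CPM in pregnant GE, and 291 to 750 CPM in cyclic and 835 to 1603 CPM in pregnant LE. Of the 7 detectable in GE, the complement genes C1S and C1R were called as higher in pregnant gilts (log2 fold changes 2.48 and 1.76), and TWIST2 had a negative fold change (-0.82, not called). Of the 8 in LE, THY1 (4.91) and C1S (1.67) were called as higher, while DPT (-1.30) and TWIST2 (-0.24) had negative fold changes that were not called. The paper counts C1S and C1R among the interferon-stimulated genes upregulated in LE. The part of fibroblast transcripts in these values was not tested.

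In BV 12 of the 14 genes under the unadjusted threshold had lower levels in pregnant gilts, and TNC had the lowest p of them. TNC stood at 447, 93.2, 169 and 382 CPM in cyclic and at 96.4, 31.5, 54.8 and 26.7 CPM in pregnant vessels, so that the groups overlapped only by C40 and P139. Its log2 fold change was -2.37 ± 0.55 (SE; adjusted p = 0.035 by edgeR), outside the limit set above. TNC, COL6A1, COL6A2, COL12A1, FBN2, POSTN and ELN were picked for mention after their values were seen. COL14A1 stood at 2157, 1971, 1879 and 1627 CPM in cyclic and at 897, 1008, 1465 and 785 CPM in pregnant BV, without overlap, with a log2 fold change of -0.87 ± 0.21 (adjusted p = 0.0364 by edgeR). CCN1, a matricellular protein induced by growth factors and shear, stood at 54.1, 204, 161 and 78.6 CPM in cyclic and at 67.7, 10.2, 30.3 and 39.3 CPM in pregnant BV (log2 fold change -1.75 ± 0.55, adjusted p = 0.0754 by edgeR). In S it stood at 21.7, 43.5, 22.2 and 40.2 CPM in cyclic and at 7.48, 2.66, 6.22 and 25.9 CPM in pregnant gilts (-1.59 ± 0.57, adjusted p = 0.26 by edgeR). The groups overlapped by 1 pregnant gilt in each capture, P139 in BV and P43 in S. FBN2 had a log2 fold change of -2.71 ± 0.82 in BV and HAS2 of -2.13 ± 0.80, both under the unadjusted threshold and not called by the rule above. Besides SNED1, DESeq2 called TNC and COL14A1 as lower in BV, with adjusted p of 0.000215 and 0.00103. The robust likelihood ratio test of edgeR called TNC, COL14A1, CCN1, FBN2 and OGN as lower in BV, besides COL8A1 and ACAN (given below).

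For COL8A1 and ACAN in vessels 1 library set the fold change. COL8A1 stood at 34.3, 23.4, 221 and 80.7 CPM in cyclic BV and at 127, 0, 0 and 2.60 CPM in pregnant BV. ACAN, which encodes aggrecan, the large proteoglycan best known from cartilage and whose exons overlap those of HAPLN3 on the other strand, stood at 4.03, 7.49, 15.3 and 6.37 CPM in cyclic and at 49.9, 0, 0 and 0 CPM in pregnant BV. P139 was within the cyclic range or above it, and the other 3 pregnant gilts lay below every cyclic gilt for both genes. With P139 the log2 fold changes were -1.48 for COL8A1 and 0.56 for ACAN (adjusted p = 0.511 and 0.816 by edgeR), and without it -6.60 and -7.60 (adjusted p = 0.0159 and 0.0158). With P139 kept, the robust likelihood ratio test of edgeR called both lower, with log2 fold changes of -5.35 and -5.10 (adjusted p = 6.50e-07 and 1.08e-06). The paper lists both genes as differentially expressed in BV only. In the same libraries the 8 smooth muscle markers summed to 6219 to 18584 CPM in cyclic and 1208 to 7220 CPM in pregnant BV, P139 having the highest pregnant and C78 the highest cyclic sum. The 10 epithelial markers summed to 3.69 to 54.8 CPM in cyclic and 187 to 356 CPM in pregnant BV. FN1 stood at 3810, 3810, 5452 and 6662 CPM in cyclic and at 7793, 2131, 2725 and 2039 CPM in pregnant BV, with P139 again above the other pregnant gilts. The part of the smooth muscle and epithelial transcripts in these values was not tested.

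**Figure D5:**
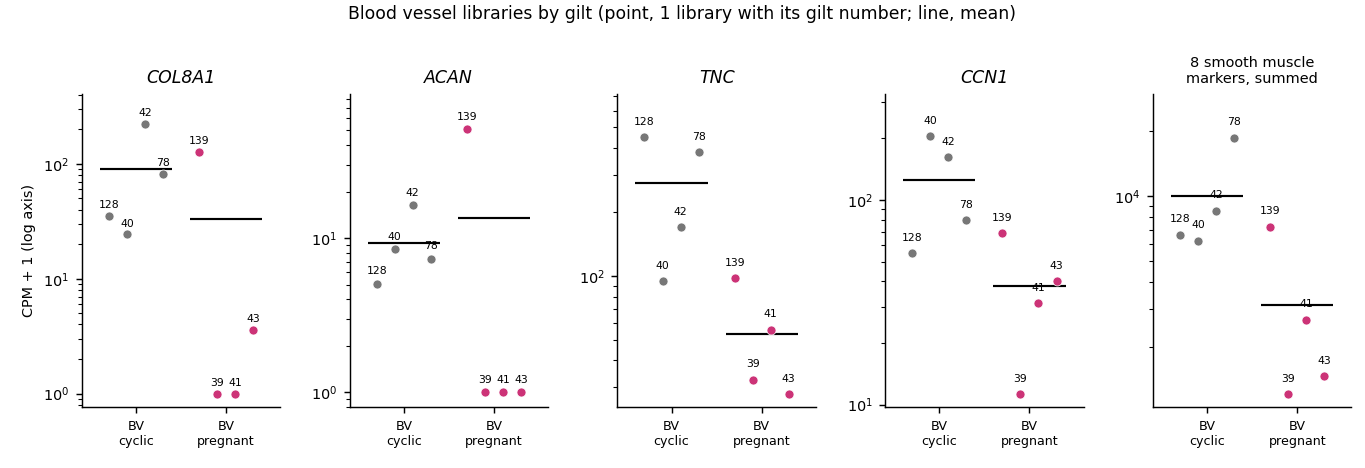
CPM + 1 on a log axis of COL8A1, ACAN, TNC and CCN1 and of the sum of 8 smooth muscle markers in the vessel libraries, each point 1 library with its gilt number, and a line at the group mean. P139 is the highest pregnant library in all 5 panels, and the other 3 pregnant gilts lie at 0 to 2.60 CPM for COL8A1 and at 0 for ACAN.

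In S the genes under the unadjusted threshold were lower in pregnant gilts in 8 of 10 cases. POSTN stood at 40, 16.0, 21.1 and 38.3 CPM in cyclic and at 11.5, 12.1, 15.4 and 7.49 CPM in pregnant S, without overlap (log2 fold change -1.31 ± 0.34, adjusted p = 0.155 by edgeR). COL14A1 stood at 3002, 3758, 2410 and 2614 CPM in cyclic and at 458, 1508, 1786 and 911 CPM in pregnant S, also without overlap (-1.33 ± 0.38, adjusted p = 0.179 by edgeR). LOXL2 (-1.0 ± 0.29), COL6A3 (-0.79 ± 0.25), HAS2 (-1.73 ± 0.69) and VCAN (-0.69 ± 0.28) were the others besides MFAP5 and CCN1. ELN stood at 16.8 to 47.9 CPM in cyclic and 49.8 to 75.9 CPM in pregnant S (0.98 ± 0.29, adjusted p = 0.197 by edgeR), and SNED1 was the other gene with a positive fold change. None of these was called by the rule above, and DESeq2 called POSTN and COL14A1 with adjusted p of 0.0269 and 0.0224. The robust likelihood ratio test of edgeR called POSTN, COL14A1, CCN1, MFAP5, LOXL2 and HAS2 as lower and ELN and MFAP4 as higher. In the same libraries the 8 smooth muscle markers summed to 563 to 1348 CPM in cyclic and 540 to 707 CPM in pregnant S. Of them 6 had negative and 2 positive fold changes, and ACTA2 was called as lower (log2 fold change -2.10). TAGLN (-1.30), CNN1 (-2.28) and MYH11 (-0.82) were under the unadjusted threshold and not called. LMOD1 (-0.17), MYLK (-0.08), SMTN (0.02) and DES (0.11) were not under it. The 10 epithelial markers summed to 11.3 to 195 CPM in cyclic and 40.2 to 510 CPM in pregnant S, with a positive fold change for each of the 9 detectable and none called. The part of these transcripts in the stroma values was not tested. The difference between the pregnancy effects in BV and S called 0 of the 42 genes and 0 of all 13887 (background 0.0%), with 2 of the 42 and 4.67% of all genes at an unadjusted p under 0.05. DESeq2 likewise called 0 of the 42 for this difference. The lowest p was that of MFAP4, whose log2 effect in BV minus that in S was -1.91 ± 0.57 (adjusted p = 0.915 by edgeR).

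SPP1, which encodes osteopontin, a secreted ligand of integrins that pig luminal epithelium is known to express, was not called in any compartment. In LE it stood at 58.3, 58.3, 66.8 and 32.1 CPM in cyclic and at 26, 15.9, 230 and 78.8 CPM in pregnant gilts. P41 was the highest library, P139 and P39 lay below all cyclic gilts, and without P41 the log2 fold change turned from positive to -0.40. In GE SPP1 was at 1.82 to 9.26 CPM in all libraries, and the fits without 1 library gave log2 fold changes from 0.72 to 1.34. In BV 3 pregnant libraries lay below every cyclic one, and those fits gave -1.70 to -0.61. For S they gave -1.54 to -0.59, with 1 pregnant library below every cyclic one. The paper's own RNA-seq comparison also had SPP1 lower in BV and S of pregnant gilts, under a false discovery rate of 1% in BV, and higher in GE. In complete endometrium, which was not analysed here, the paper had SPP1 higher in pregnant gilts, both by RNA-seq and by qPCR.

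Genes that fold and process collagen and the cell surface receptors of the matrix were read from lists of 25 and 21 genes that hold none of the 43. Of the 24 tested folding and processing genes, 19 were higher in S than in LE and 3 lower, and 19 higher than in GE and 2 lower. None was called for pregnancy within a compartment by edgeR, and at an unadjusted p under 0.05 in S 8 of the 23 detectable ones were lower in pregnant gilts and 0 higher, where 7.05% of all genes were lower and 7.49% higher. At the same threshold 5 of 24 were lower and 1 higher in BV (all genes 14.1 and 14.4%), 2 of 20 lower and 3 higher in GE (11.8 and 11.2%), and 1 of 23 lower and 2 higher in LE (13.0 and 14.0%). Of the receptors, 0 of 20 were called for pregnancy in stroma, 1 of 20 in vessels, 2 of 16 in glands and 2 of 20 in LE, all higher in pregnant gilts, where 0.293, 1.86, 0.748 and 3.32% of all genes were called in either direction. At an unadjusted p under 0.05 the receptors that passed were 3, 8, 4 and 6 in the same order, beside 14.5, 28.5, 23.0 and 26.9% of all genes. Of these, 1, 5, 3 and 5 were higher and 2, 3, 1 and 1 lower in pregnant gilts. The called receptors were ITGAV (log2 fold change 1.93 ± 0.33) and ITGB5 (1.67 ± 0.20) in LE, which together form a receptor for vitronectin and osteopontin, ITGB5 (1.31 ± 0.20) and the thrombospondin receptor CD36 (2.19 ± 0.36) in GE, and DDR1 (1.25 ± 0.21), a collagen-binding receptor tyrosine kinase, in BV. ITGB3 (3.72 ± 0.68) and ITGB6 (3.01 ± 0.65) had larger fold changes in LE and were not called (adjusted p = 0.0102 and 0.0204 by edgeR). In the test of a difference between compartments, 3 of 21 receptors (ITGAV, ITGB3 and ITGB5) and 1 of 24 processing genes, the prolyl hydroxylase subunit P4HA1, were called, where 1.94% of all genes were.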

How the data were processed

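Upstream, the authors used Trim Galore for trimming, Hisat2 for alignment to Sscrofa11.1, nudup for duplicate removal and QuasR for counts by NCBI gene. They deposited the counts of each library, with a filtered table per compartment. Versions, strand setting and the cut-off of the filter were not given in the sources used here. The 43 genes and the other lists were chosen with earlier results of these data known.

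Counts were normalized by TMM and tested with edgeR 4.0.16 (limma 3.58.1, R 4.3.3) by quasi-likelihood F tests with Benjamini-Hochberg adjustment, pregnancy within each compartment over its filtered table and compartments in a joint fit of 31 libraries with the gilt as a block. The joint fit held the 13887 genes detectable in at least 1 compartment. Compartments of 1 gilt come from the same animal by the numbers in the titles. Deviations from group means had a median correlation of 0.143 within gilts (45 pairs) and -0.0444 between them (135 pairs). Python 3.11.15 with SciPy 1.17.1 ran the exact permutation tests. DESeq2 1.42.0, robust GLM, RLE normalization, other filters, a false discovery rate of 5% and omitted libraries were tried. The scripts were tested on simulated data.

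Values per library are given for genes called for pregnancy, the 2 highest per kb of each role in S, those with a higher mean in LE or GE than in S, and SPP1, COL8A1, ACAN and CCN1. Precision is limited by 3 or 4 gilts per group.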

Additional observations from a re-analysis of the deposited data

Results flagged for a closer look

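In groups of 4 libraries, 16 of 153 groups over 22 genes held a library far from the other 3, where chance gives about 1 in 20. That rate does not apply to ACAN in 4 of the 16 groups, whose other 3 libraries were at 0, so that any count sets its library apart. COL8A1 and ACAN are among the 22 genes by name and not by rank or call. The 22 genes were read in the same libraries, so that the groups are not independent and the rate is only a rough guide.

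In vessels of P139, COL8A1 was at 127 CPM with the nearest pregnant library at 2.60, ACAN at 49.9 with the others at 0, and FN1 at 7793 with the nearest at 2725, while DCN was low at 1507 with the nearest at 2547. In vessels of P41 COL1A1 was at 20958 with the nearest at 10771 CPM. In vessels of C128 FMOD was at 933 (nearest 622), TNXB at 1141 (nearest 487) and FBN1 at 2900 CPM (nearest 1851).

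In LE of C78, LUM was at 119 (nearest 638), FBN1 at 112 (nearest 278) and HAS2 at 0.228 CPM (nearest 2.94). In S, COL8A1 was at 5.48 in C78 (nearest 0.841) and at 7.02 in P139 (nearest 0.341), and ACAN at 2.91 CPM in C78 with the other cyclic libraries at 0. ACAN was also at 0.285 CPM in LE of C42 and at 0.692 CPM in GE of C40, with 0 in the other cyclic libraries.

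The pregnancy effect differed between compartments, by a joint test in edgeR, for P4HA1 (adjusted p = 0.00282), ITGAV (adjusted p = 0.00555), ITGB3 (adjusted p = 0.00634) and ITGB5 (adjusted p = 0.00688).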

How the results depend on the processing

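Of 143 recomputed counts of called genes 116 stayed within 1.5 times the reported count and 27 did not. Of 968 recomputed log2 fold changes of named genes 883 kept direction and call, 32 became called, 48 lost the call and 5 turned. The pregnancy counts moved with the test: the robust GLM called 2 genes for LE and 8 each for GE, BV and S, DESeq2 6, 3 and 2 for GE, BV and S, with 1 for the difference between compartments, and a false discovery rate of 5% called 3 in BV and 1 for that difference. Without C78 and P139 together, an alternative chosen after seeing the data, 0 genes were called in LE. The cause was not tested. The robust GLM was not run in the joint fit.

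Leaving out 1 gilt at a time, the pregnancy counts ranged from 0 to 0 for S, 1 to 2 for BV, 0 to 2 for GE and 0 to 1 for LE, and the others from 33 to 35 for S against LE, 35 to 37 for S against GE, 12 to 17 for S against BV, 26 to 30 for LE against GE, 0 to 0 for BV minus S and 0 to 2 for the difference between compartments. SPP1 in LE turned to -0.0069 on the log2 scale with the robust GLM and ranged from -0.40 without P41 to 1.05. ACAN in BV turned to -5.10 with the robust GLM and to -7.75 without C78 and P139, and ranged from -7.60 without P139 to 1.05.

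Without the gilt as a replicate block the counts were 33 for S against LE, 35 for S against GE, 12 for S against BV, 28 for LE against GE and 0 for both tests between pregnancy effects. With RLE normalization TNXB lost its call in S against BV (adjusted p = 0.0104 by edgeR). Depth limits genes near 3 counts per group, such as ACAN outside vessels.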
